A study of Mus musculus with 7 samples.

Results

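The lysosomal genes described here encode enzymes of the lysosome, proteins of its membrane, subunits of its proton pump and the transcription factor Tfeb. A list of 35 genes was set down by name, and each gene was represented by the probe set with the highest mean log2 signal among those annotated to that gene alone. This gave 34 genes of the 18193 on the array, while Cd63 had no such probe set and was not analysed here. All 34 passed the filter on low signal that left 12125 genes for testing, and all 34 were above background on all 7 arrays. Of the 34, 25 had more than 1 probe set.

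The arrays came from macrophages sorted by GFP and F4/80 after papain digestion of C57/Bl6 mouse brain. The 4 GL261 arrays were made from tumours of GL261, a mouse glioma cell line, at day 21 after injection into the brains of mice that carried GFP bone marrow. The 3 normal brain arrays were made from mice 8 weeks old. Whether these mice carried GFP bone marrow too is not given in the labels, so which macrophages the sort took may differ between the groups. Nothing in the labels says that arrays came from separate mice, and the p-values thus describe only how these few arrays vary, which may be technical, and the number of arrays limits the precision. The values are MAS5 signals, which are linear intensities.

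Lysosomes break down proteins, lipids and sugar chains that a cell has taken up or recycles from its own organelles. Their hydrolases work at the low pH made by the vacuolar proton pump, in which a cytosolic V1 sector splits ATP and a membrane V0 sector passes protons into the lumen. Tfeb and its relatives Mitf, Tfe3 and Tfec are transcription factors that bind a DNA motif shared by the promoters of many lysosomal genes. Macrophages are rich in lysosomes because they clear dead cells and debris, and inherited loss of many of the enzymes listed here causes storage of undigested material in brain macrophages and neurons.

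As a group the 34 genes were split evenly between the preparations, with a few single genes that differed. In GL261, Gla, Atp6v1a and Man2b1 were called higher and Arsb and Gaa lower at an adjusted p under 0.05 (limma, adjusted over all 12125 genes). The 5 called genes were 14.7% of the 34, beside 10.1% of all genes tested. Called higher were 3 of 34, or 8.82%, beside 5.92% of all genes, and called lower were 2 of 34, or 5.88%, beside 4.20%. The groups did not overlap for 10 of 34 genes, or 29.4%, beside 23.4% of all genes. All GL261 arrays were above all normal brain arrays for 7 of the 34 genes (13.1% of all genes) and below them for 3 (10.4% of all genes). Of the 34 log2 fold changes 17 were above 0 and 17 below 0, and over all genes 52.8% were above 0. The median log2 fold change was 0.0018 over the 34 genes and 0.038 over all genes. Under quantile normalization the median of the 34 was 0.13, and 5 genes were called higher and 2 lower, while under median centring 1 was called in each direction. Of all genes, 12.2% were called under quantile normalization, 6.68% under median centring and 4.47% to 9.66% in the fits without 1 array. Without normal brain replicate 1, normal brain replicate 2 or GL261 replicate 3, 1 gene was called higher and 1 lower, and 1 was called lower without normal brain replicate 3 or GL261 replicate 4.

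**Figure D1:**
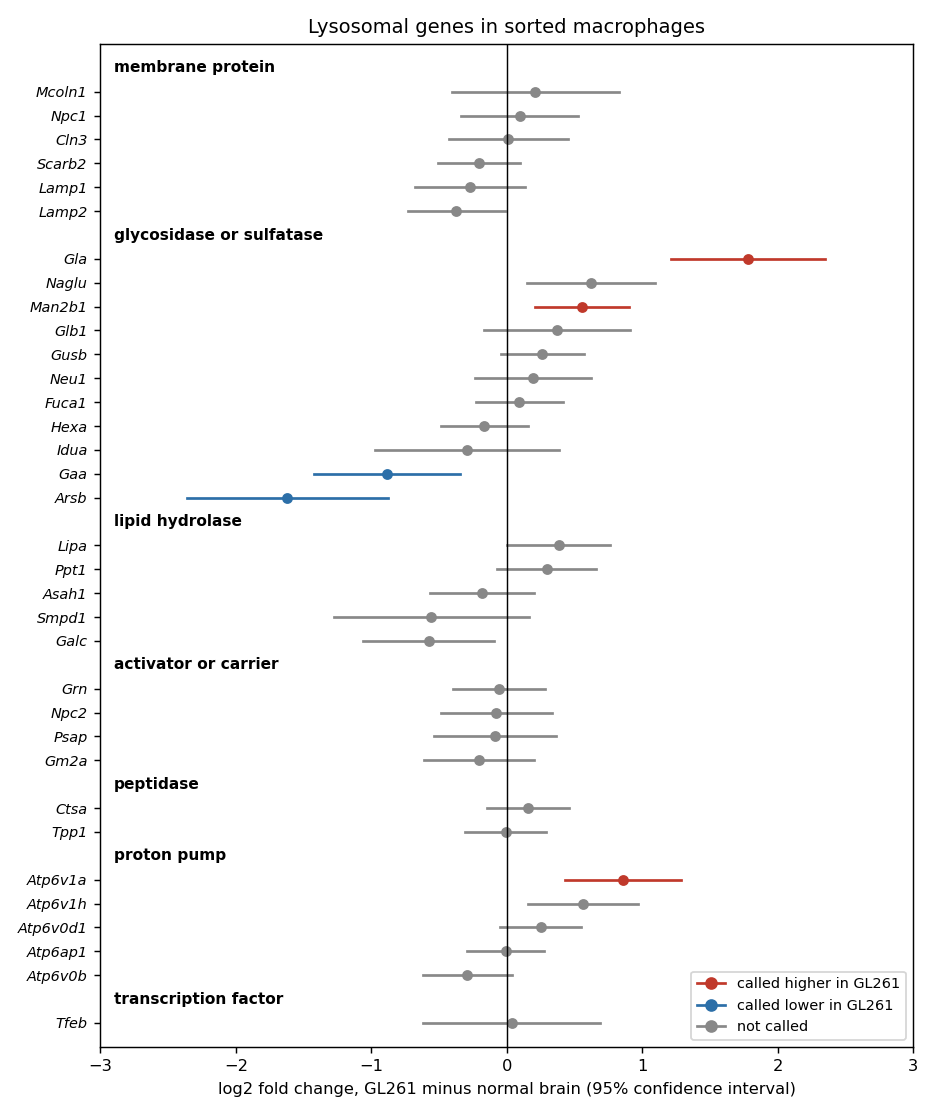
Log2 fold changes of the 34 lysosomal genes, GL261 minus normal brain, grouped by role (points, with the 95% confidence interval of the limma fit as lines, 4 against 3 arrays). Gla, Man2b1 and Atp6v1a were called higher and Gaa and Arsb lower, and the other 29 were not called.

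The enzymes that cut sugar chains or remove sulfate groups from them held 4 of the 5 calls, 2 in each direction among 11 genes. Called were 36.4% of these 11, beside 10.1% of all genes tested. The calls of Man2b1 and Gaa were lost in most fits that left out 1 array. Gla encodes alpha-galactosidase A, which removes terminal galactose from glycolipids and is the enzyme missing in Fabry disease. Its signals were 2177, 1801, 1889 and 1651 on the GL261 arrays, against 866, 454 and 402 on the normal brain arrays. Every GL261 array was well above every normal brain array. Gla was 3.43-fold higher in GL261 (log2 fold change 1.78, SE 0.26, adjusted p = 0.00218), and its call held in all 7 fits that left out 1 array. A dimmer probe set of Gla had 192, 574, 298 and 104 in GL261, against 101, 62.1 and 157 in normal brain, with overlap (log2 fold change 1.23, adjusted p = 0.255 by itself). With the mean of all probe sets Gla was at 0.94 and not called (adjusted p = 0.115). That mean includes another probe set, at -0.21, that was above background on only 3 of 7 arrays.

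Man2b1 encodes lysosomal alpha-mannosidase, which trims mannose from glycoproteins. It had signals of 7339, 6448, 7699 and 9156 in GL261, against 5293, 5855 and 4461 in normal brain. The groups did not overlap, although GL261 replicate 2 and normal brain replicate 2 came close to each other. The gene was 1.47-fold higher (log2 fold change 0.56, SE 0.16, adjusted p = 0.0469), and that call held in 1 of the 7 fits that left out 1 array, the one without GL261 replicate 2. Its other probe set had a log2 fold change of -0.40 (adjusted p = 0.383 with each probe set tested by itself), and the mean of all probe sets gave 0.08.

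Arsb encodes arylsulfatase B, which removes sulfate groups from dermatan and chondroitin chains of the matrix. Its signals were 1338, 2159, 1067 and 578 in GL261, against 4057, 3018 and 3707 in normal brain. All GL261 arrays were below all normal brain arrays, and GL261 replicate 2 was the highest of the 4. In log2 terms Arsb fell by 1.62 (SE 0.34, adjusted p = 0.0132), which leaves the normal brain level 3.07-fold above that of GL261, and the call held in all 7 fits without 1 array. With the mean of all probe sets Arsb was at -0.86 and not called (adjusted p = 0.0757). That mean includes a probe set, at 0.16, that was above background on only 5 of 7 arrays. A dimmer probe set of Arsb had signals of 198, 233, 308 and 227 in GL261, against 406, 567 and 639.6 in normal brain, again without overlap (log2 fold change -1.13, adjusted p = 0.0712 by itself).

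Gaa encodes acid alpha-glucosidase, which breaks down glycogen inside lysosomes and is deficient in Pompe disease. It gave 1279, 1183, 672 and 783 in GL261, against 1542, 2098 and 1651 in normal brain. The groups did not overlap, and GL261 replicates 1 and 2 lay nearer to normal brain than replicates 3 and 4. In log2 terms Gaa fell by 0.88 (SE 0.25, adjusted p = 0.0433), and the call held in 2 of the 7 fits without 1 array, those without GL261 replicate 1 or 2. The other probe set of Gaa was also lower on every GL261 array (log2 fold change -0.65, adjusted p = 0.104 by itself).

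The remaining 7 enzymes of this group were not called, and 5 of them had values above 0. Naglu, which removes N-acetylglucosamine from heparan sulfate, had signals of 1501, 1343, 1114 and 1186 in GL261, against 1029, 640.3 and 859 in normal brain. The groups did not overlap, with a log2 fold change of 0.62 and an adjusted p of 0.0912. Gusb, the beta-glucuronidase, was at 4145, 5055, 4412 and 4022 in GL261, against 3739, 3393 and 3864 in normal brain, also without overlap (log2 fold change 0.26, adjusted p = 0.26). The beta-galactosidase gene Glb1 (0.37), the sialidase gene Neu1 (0.20), the fucosidase gene Fuca1 (0.09), the hexosaminidase subunit gene Hexa (-0.17) and the iduronidase gene Idua (-0.29) had overlapping groups. Their adjusted p-values ran up to 0.731 for Fuca1, and the 95% confidence interval of Idua, -0.97 to 0.39, was the widest of the 5.

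**Figure D2:**
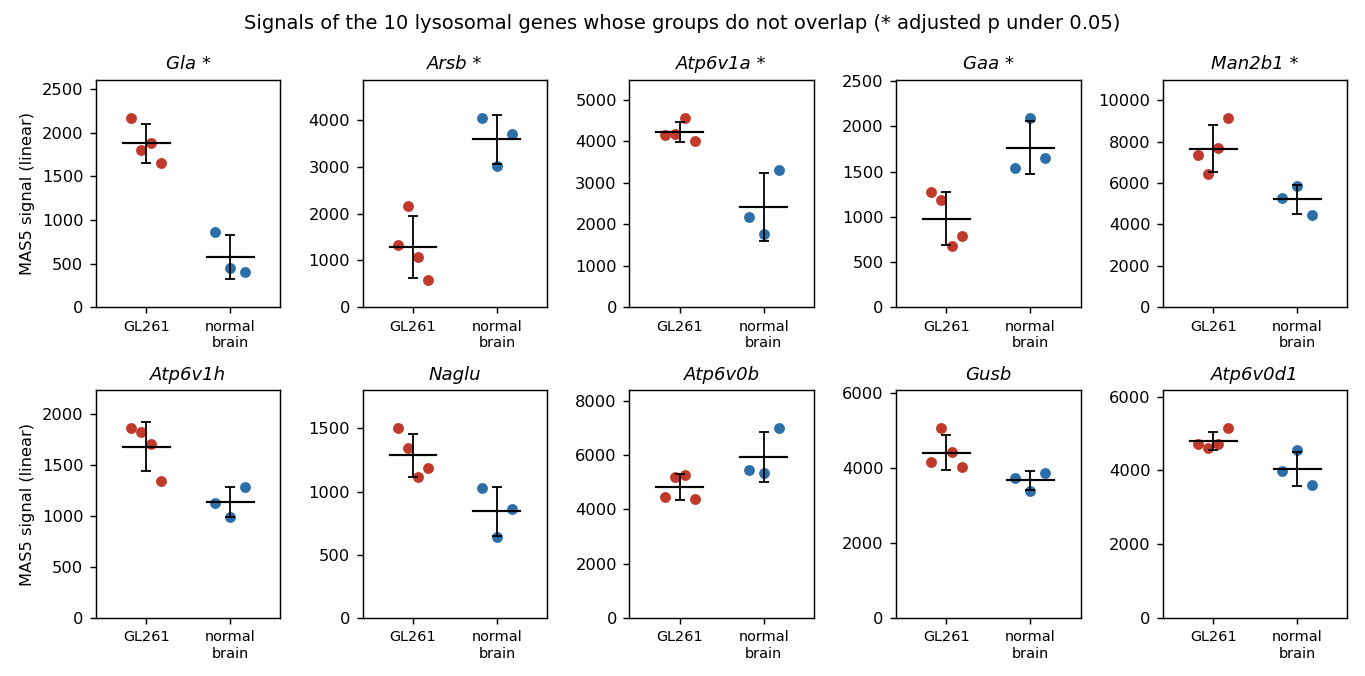
MAS5 signals on a linear axis that starts at 0 for the 10 lysosomal genes whose groups do not overlap (points are arrays, bars the mean and whiskers the SD, 4 GL261 and 3 normal brain arrays). The 5 genes with a star were called, and Gla and Arsb show the widest gaps between groups.

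The proton pump held 1 of the calls among its 5 listed genes, or 20%, beside 10.1% of all genes tested. Further V1 subunits outside the list were called in the same direction. Atp6v1a encodes the catalytic A subunit of the V1 sector. It had signals of 4149, 4184, 4567 and 4008 in GL261, against 2165, 1754 and 3315 in normal brain. The GL261 arrays were close together and all above the normal brain arrays, of which replicate 3 was the highest. Atp6v1a was 1.81-fold higher (log2 fold change 0.86, SE 0.20, adjusted p = 0.0191). Its other probe set gave 2450.3, 2158, 2632 and 2282 in GL261, against 1231, 1647 and 1344 in normal brain, and was called as well (log2 fold change 0.76, adjusted p = 0.028 with each probe set tested by itself). The call of Atp6v1a was lost without normal brain replicate 1 (adjusted p = 0.0528), normal brain replicate 2 (0.0613) or GL261 replicate 3 (0.062).

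Atp6v1h, the regulatory H subunit of V1, had signals of 1861, 1825, 1703 and 1340.2 in GL261, against 1126, 993 and 1286 in normal brain. The groups did not overlap but the gene was not called (log2 fold change 0.56, SE 0.19, adjusted p = 0.0766), and a dimmer probe set, also above background, was at -0.69 with overlapping groups. Of the V0 genes, Atp6v0d1, which joins the 2 sectors, was at 4718, 4597, 4705 and 5139 in GL261, against 3969.9, 4541 and 3609 in normal brain. Atp6v0b, a proteolipid of the proton-carrying ring, was at 4448, 5207, 5266 and 4381 in GL261, against 5471, 5347 and 6999 in normal brain. These genes had groups without overlap in opposite directions and were not called (log2 fold changes 0.25 and -0.29, adjusted p = 0.273 and 0.243). The accessory gene Atp6ap1 had a log2 fold change of -0.0088 with a 95% confidence interval of -0.29 to 0.27.

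Over all pump genes tested, 9 encoded V1 subunits, and those outside the list were added after their values were seen. Of the 9, 7 had values above 0 (52.8% of all genes tested). All GL261 arrays were above normal brain for 6 (13.1% of all genes), and 3 were called higher (5.92% of all genes). The median log2 fold change of the V1 genes was 0.56. Besides Atp6v1a, the calls were Atp6v1b2, the B subunit that forms the catalytic ring with A (0.73, adjusted p = 0.0137), and Atp6v1c1, a stalk subunit (0.57, adjusted p = 0.0375). Atp6v1f (0.43, adjusted p = 0.0702) and Atp6v1e1 (0.36, adjusted p = 0.129) lay above normal brain on every GL261 array without a call, and Atp6v1g1 (-0.30), Atp6v1d (-0.06) and Atp6v1g2 (0.56, SE 0.50) had overlapping groups. The value of Atp6v1g2, with signals of 99.8 to 178 in GL261, against 47.7 to 110 in normal brain, was the V1 median. The 8 V0 genes had a median of 0.075 and 1 call. That call was Atp6v0d2, the d subunit found in osteoclasts and some macrophages. It had signals of 1263, 546, 1140.2 and 1375 in GL261, against 126, 128 and 21.9 in normal brain (log2 fold change 3.70, SE 0.56, adjusted p = 0.00264). GL261 replicate 2 was the lowest of its group and still above all normal brain arrays. Atp6v0e2 had signals of 41.0, 96.1, 39.8 and 40.1 in GL261, against 18.1, 6.76 and 10.4 in normal brain, of which replicates 2 and 3 were below background, and it was not called (adjusted p = 0.0592). The genes Atp6v0a1, Atp6v0a2, Tcirg1 and Atp6v0e lay between -0.39 and 0.08 with overlapping groups. The calls of Atp6v0d2 and Atp6v1b2 held in all 7 fits without 1 array and that of Atp6v1c1 in 1, the one without GL261 replicate 4. Without normal brain replicate 3, its lowest array, Atp6v0d2 was at 2.95. With the mean of all probe sets Atp6v1b2 was at 0.46 (adjusted p = 0.348) and Atp6v1c1 at 0.46 (adjusted p = 0.0755), and neither was called. Under median centring Atp6v1a (adjusted p = 0.0729), Atp6v1b2 (adjusted p = 0.0961) and Atp6v1c1 (adjusted p = 0.186) were not called. The difference between the sectors was not tested.

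**Figure D3:**
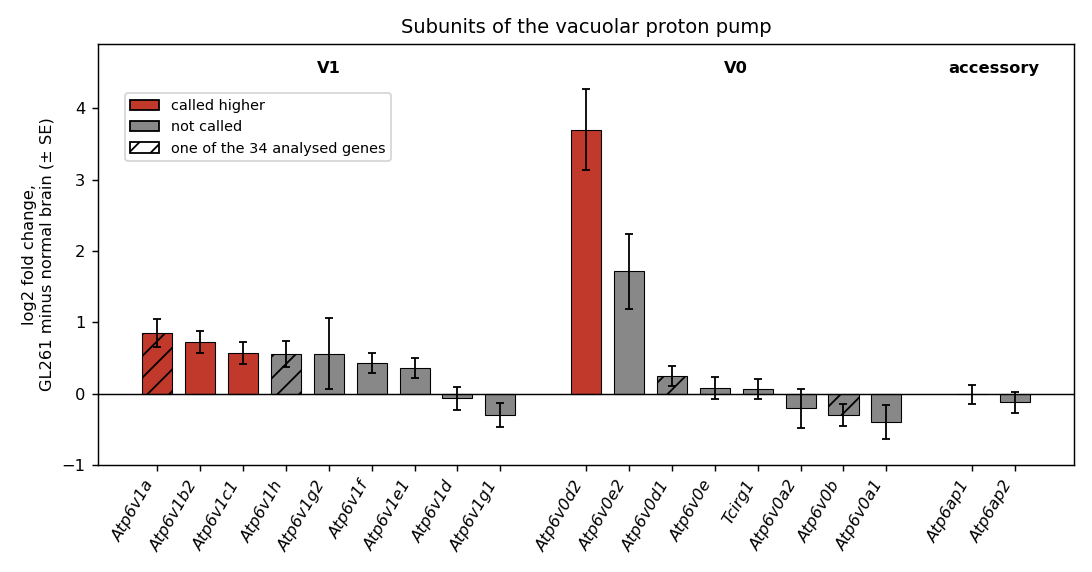
Log2 fold changes of the proton pump subunits tested, GL261 minus normal brain, in the V1 sector, the V0 sector and the accessory proteins (bars, with the SE of the limma fit as whiskers). Atp6v1a, Atp6v1b2, Atp6v1c1 and Atp6v0d2 were called higher, and hatched bars mark genes of the list described here.

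The membrane proteins had 0 calls among 6 genes by limma, and 1 of them, Lamp2, passed an unadjusted p under 0.05. Beside 10.1% of all genes called, 0 calls among so few genes says little. Lamp1 and Lamp2 are the heavily glycosylated proteins that line the lysosomal membrane. Lamp1 had signals of 9646, 9527, 13299.6 and 14179.7 in GL261, against 11798, 13759 and 16445 in normal brain, with overlap between the groups (log2 fold change -0.27, 95% confidence interval -0.68 to 0.13, adjusted p = 0.386). Lamp2 had 7224, 8135, 8669 and 10370.3 in GL261, against 9674, 10712 and 13015 in normal brain. Only GL261 replicate 4 exceeded the lowest normal brain array (log2 fold change -0.37, 95% confidence interval -0.73 to -0.02, adjusted p = 0.173). Scarb2, the membrane receptor that carries beta-glucocerebrosidase to lysosomes, was at -0.21 (adjusted p = 0.377). The cholesterol exporter Npc1 was at 0.10, the Batten disease gene Cln3 at 0.011 and the calcium channel gene Mcoln1 at 0.21, with adjusted p-values of 0.804, 0.981 and 0.679.

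Probe sets of Lamp2 disagreed in direction. The probe set described above and another, with signals of 5543, 6377, 5998 and 7477 in GL261, against 6787, 7935 and 8843 in normal brain, were on balance lower. The dimmest Lamp2 probe set had 3779.9, 3813, 3854 and 4193 in GL261, against 2351, 2489 and 2231 in normal brain, and the next brighter one had 5961, 6003, 6452 and 6713 in GL261, against 5016, 4710.4 and 5843 in normal brain. Both of these were higher on every GL261 array than on any normal brain array. The dimmest was called when each probe set was tested by itself (log2 fold change 0.73, SE 0.14, adjusted p = 0.0146), and the next brighter one was not (0.28, adjusted p = 0.269). Lamp2 is known to give several splice forms that differ at the C-terminal end, and which form each probe set reads is not given in the sources used here. The brightest Lamp2 probe set is also among the bright ones described below, and was at -0.18 under quantile normalization (limma adjusted p = 0.193). The source of the disagreement was not tested.

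Scarb2 and Gm2a also had probe sets on both sides of 0. The second probe set of Scarb2 had 2051, 2418, 2059 and 2187 in GL261, against 1544, 1499 and 1327 in normal brain (log2 fold change 0.58, adjusted p = 0.0616). The second probe set of Gm2a, the activator that lifts the ganglioside GM2 out of membranes for Hexa, had 1223, 1094, 1490.5 and 1357 in GL261, against 605, 901 and 498 in normal brain. It was called higher (0.98, SE 0.24, adjusted p = 0.0399), whereas the brighter probe set of Gm2a was at -0.20 (adjusted p = 0.561 by itself). Under quantile normalization that brighter probe set was at 0.06 (adjusted p = 0.562). Counted by probe set, 6 of the 73 tested for these genes were called, 5 higher and 1 lower, beside 5.45% of the 27022 probe sets tested.

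The difference between probe sets of 1 gene was compared over the arrays for 35 pairs from 24 genes, chosen after the values were seen. In 17 pairs the fold changes had opposite signs. For 5 pairs, 2 of Lamp2 and 1 each of Scarb2, Gm2a and Tpp1, the two-sided exact permutation p was 0.0286, the smallest that 35 splits of the arrays allow. Adjusted over the 35 pairs it was 0.2. The other probe set minus the one used differed between the groups by 1.10 and 0.65 for Lamp2, 0.78 for Scarb2, 1.18 for Gm2a and 0.39 for Tpp1 on the log2 scale.

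**Figure D4:**
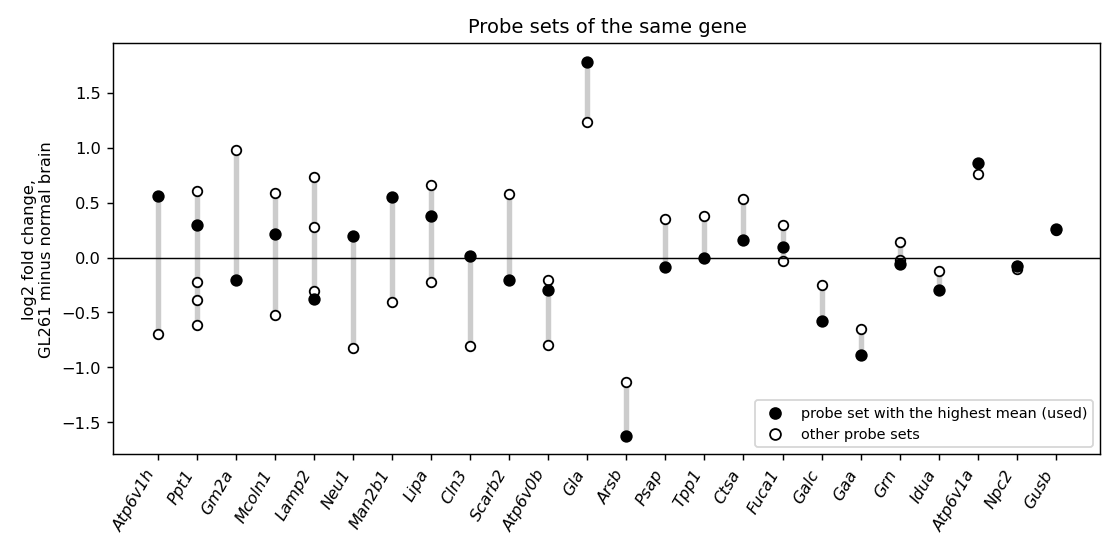
Log2 fold changes, GL261 minus normal brain, of the probe sets of 24 lysosomal genes with more than 1 probe set above background on all arrays (filled points are the probe sets used, open points the others). The probe sets of Lamp2, Gm2a and Scarb2 lie on both sides of 0, while those of Atp6v1a, Gaa and Arsb lie on the same side.

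The lipid-cleaving enzymes had 0 calls among 5 genes by limma, with Lipa and Galc past an unadjusted p under 0.05. With 10.1% of all genes called, a list this short can hold 0 calls without standing out. Lipa, the acid lipase that frees cholesterol and fatty acids from lipoprotein lipids, had 2179, 2133, 1908 and 1572 in GL261, against 1429.5, 1686 and 1347 in normal brain. All but GL261 replicate 4 were above the normal brain arrays (log2 fold change 0.38, adjusted p = 0.191). Galc, which degrades the myelin lipid galactosylceramide, had 2010.5, 1774, 1303 and 1321 in GL261, against 2460.4, 2999 and 1761 in normal brain (-0.58, adjusted p = 0.121). The sphingomyelinase gene Smpd1 was at -0.56 with a 95% confidence interval of -1.28 to 0.16. Ppt1, which removes palmitate from proteins, was at 0.29 and the ceramidase gene Asah1 at -0.18, with adjusted p-values of 0.294 and 0.547.

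The activators, carriers and peptidases had 0 calls among 6 genes by limma and 0 at an unadjusted p under 0.05. Here too the list is short beside the 10.1% of all genes called. Psap, the precursor of the saposins that present sphingolipids to their hydrolases, had 10238, 10405, 15549 and 17253 in GL261, against 12283, 13087 and 16403 in normal brain. The cholesterol carrier gene Npc2 had 10841, 10355, 15356 and 16084 in GL261, against 12039.6, 13426 and 15616 in normal brain. In both genes GL261 replicates 1 and 2 were the lowest of the 7 arrays, and the log2 fold changes were -0.09 for Psap and -0.08 for Npc2. Progranulin (Grn) was at -0.06, with a 95% confidence interval of -0.40 to 0.28. The protective protein gene Ctsa, which stabilises Glb1 and Neu1, was at 0.16, and the tripeptidyl peptidase gene Tpp1 at -0.0072 with an interval of -0.31 to 0.29.

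The genes with the brightest probe sets shared an array pattern with other bright genes. The 9 genes with a mean log2 value above 13 were Lamp1, Lamp2, Hexa, Npc2, Psap, Asah1, Ctsa, Gm2a and Grn, and 8 of them had log2 fold changes below 0. Over all 291 tested genes this bright, 86.6% were below 0, with a median of -0.23, beside -0.17 for the 9 genes. Relative to its mean over the arrays, the median bright lysosomal gene was at -0.28 and -0.29 in GL261 replicates 1 and 2, at 0.13 and 0.19 in GL261 replicates 3 and 4, and between -0.08 and 0.30 in normal brain. All bright genes together were at -0.37, -0.34, 0.15 and 0.20 in GL261 and between -0.07 and 0.35 in normal brain. Under quantile normalization, which gives every array the same distribution, the 9 genes had a median of 0.06, 3 were below 0, and Npc2 (0.19, adjusted p = 0.0393) and Ctsa (0.31, adjusted p = 0.0403) were called higher. The values of the 25 less bright genes had a median log2 fold change of 0.10 as deposited.

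Tfeb itself had signals of 425, 348, 451 and 588 in GL261, against 434, 440.2 and 428 in normal brain. The normal brain arrays lay within the range of the GL261 arrays (log2 fold change 0.03, 95% confidence interval -0.62 to 0.69, adjusted p = 0.96). Of its relatives, Mitf was called higher, with 4234, 3478, 3816 and 3877 in GL261, against 1978, 2539 and 2117 in normal brain (0.80, SE 0.15, adjusted p = 0.00744). Tfec, a relative expressed mainly in macrophages, had 2283, 544, 2213 and 2096 in GL261, against 183, 136 and 95.2 in normal brain (3.48, SE 0.48, adjusted p = 0.00146). GL261 replicate 2 was the lowest GL261 array for Tfec. Both calls held in all 7 fits without 1 array, and Tfec was called in all 19 alternatives. Mitf was not called under median centring (0.79, adjusted p = 0.0655), without a variance trend (adjusted p = 0.0561) or with the mean of all probe sets (0.67, adjusted p = 0.232). Tfe3 was at -0.24 (adjusted p = 0.296), with all GL261 arrays below normal brain.

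The promoter windows of the 5 called genes are shown because members of the Tfeb family bind the letters CACGTG, best within TCACGTGA. The windows are from RefSeq (GRCm38.p6) and run from 250 bases before to 50 after the annotated gene start, 5′ to 3′ on the strand of the gene, with CACGTG in capitals. Gla lies at chrX:134600956-134601255 and Atp6v1a at chr16:44139210-44139509, both on the minus strand, and Gaa at chr11:119267713-119268012, Man2b1 at chr8:85083019-85083318 and Arsb at chr13:93771429-93771728 on the plus strand.
Gla: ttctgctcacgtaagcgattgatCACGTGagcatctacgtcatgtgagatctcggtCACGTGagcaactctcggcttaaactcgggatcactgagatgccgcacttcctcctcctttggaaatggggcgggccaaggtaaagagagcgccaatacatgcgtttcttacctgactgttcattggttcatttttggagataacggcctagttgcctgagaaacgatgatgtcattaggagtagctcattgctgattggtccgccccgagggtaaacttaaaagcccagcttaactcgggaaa
Atp6v1a: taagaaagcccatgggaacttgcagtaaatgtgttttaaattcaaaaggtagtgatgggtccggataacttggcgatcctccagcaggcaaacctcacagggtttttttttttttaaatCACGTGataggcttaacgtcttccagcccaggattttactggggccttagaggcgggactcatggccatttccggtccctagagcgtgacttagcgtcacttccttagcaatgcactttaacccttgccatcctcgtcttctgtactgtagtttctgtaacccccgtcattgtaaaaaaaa
Man2b1: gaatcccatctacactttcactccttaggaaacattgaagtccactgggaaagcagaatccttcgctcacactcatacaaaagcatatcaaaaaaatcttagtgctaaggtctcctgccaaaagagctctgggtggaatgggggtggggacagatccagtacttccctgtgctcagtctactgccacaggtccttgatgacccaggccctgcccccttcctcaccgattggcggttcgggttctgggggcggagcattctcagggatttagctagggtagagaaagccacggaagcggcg
Gaa: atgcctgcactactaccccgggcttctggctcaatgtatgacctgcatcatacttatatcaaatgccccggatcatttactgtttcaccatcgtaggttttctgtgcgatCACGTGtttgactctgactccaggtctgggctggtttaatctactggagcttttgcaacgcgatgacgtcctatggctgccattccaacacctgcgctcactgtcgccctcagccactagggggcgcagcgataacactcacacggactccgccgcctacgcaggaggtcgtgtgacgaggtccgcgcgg
Arsb: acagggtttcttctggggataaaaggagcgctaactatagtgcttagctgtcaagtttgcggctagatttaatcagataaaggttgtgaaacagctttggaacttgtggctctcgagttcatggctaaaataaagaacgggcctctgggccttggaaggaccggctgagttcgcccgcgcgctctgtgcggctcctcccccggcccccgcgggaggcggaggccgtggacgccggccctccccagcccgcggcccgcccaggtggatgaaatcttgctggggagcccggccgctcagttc
Gla held CACGTG at 2 places, 227 and 194 bases before the start, and Atp6v1a at 1 place, 131 bases before it, all within TCACGTGA. Gaa held CACGTG 140 bases before the start, outside the longer motif. The windows of Man2b1 and Arsb held neither.

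Windows were found for 31 of the 34 genes. Both motifs read the same on either strand, and each TCACGTGA contains a CACGTG. TCACGTGA was in the windows of 6 of the 31 genes, or 19.4%. The share was 2.16% of the 9831 tested genes with a window and 1.12% of all 27025 genes with a window. CACGTG was in 11 of 31, or 35.5%, beside 11.6% of tested genes and 8.09% of all genes with a window. The motif is known from promoters of many lysosomal genes, so its excess in a lysosomal list is not a result of these data. The 6 genes with TCACGTGA were Gla, Atp6v1a, Atp6v0d1, Mcoln1, Ctsa and Cln3, and all 6 had log2 fold changes above 0, with a median of 0.23. Of these, Cln3 at 0.011 turned to -0.03 under quantile normalization, -0.0044 under median centring and -0.40 with the mean of all probe sets. Leaving out GL261 replicate 1, GL261 replicate 2 or normal brain replicate 2 also put Cln3 below 0, and Mcoln1 was at -0.09 without normal brain replicate 2. Of the 25 genes without it 9 were above 0, with a median of -0.077. Over all tested genes with TCACGTGA 130 of 212, or 61.3%, were above 0, with a median of 0.092. Only Gla and Atp6v1a of the 6 were called. The difference between genes with and without TCACGTGA was not tested. A match describes the letters in this window and does not show binding.

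To place the list among other lysosomal genes, 127 further genes were named in 4 lists, of which 113 were tested. These lists were chosen with earlier results of these data known, so their share of calls does not test lysosomal genes as a class. In GL261 17 of them were called higher and 4 lower, together 18.6% beside 10.1% of all genes tested, with a median log2 fold change of 0.083. The higher calls numbered 10 without normal brain replicate 1, 10 without normal brain replicate 3, 8 without GL261 replicate 1, 8 without GL261 replicate 3 and 7 under median centring. The lower calls numbered 1 without normal brain replicate 2 or GL261 replicate 3. Under quantile normalization 19 were higher and 6 lower, and under median centring 3 were lower. The share of all genes called moved too, to 12.2% under quantile normalization, 6.68% under median centring and 4.47% to 9.66% without 1 array. Of the 21 calls 9 held in all 7 fits without 1 array, those of Acp5, Pla2g7, Gpnmb, Clcn7, Cd82, Mitf, Tfec, Atp6v0d2 and Atp6v1b2. Acp5, Pla2g7, Gpnmb, Tfec and Atp6v0d2 were also called in all 19 alternatives.

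Among other hydrolases and activators, 5 of 26 were called higher and 1 lower, together 23.1% beside 10.1% of all genes tested. Acp5, the tartrate-resistant acid phosphatase of osteoclasts and activated macrophages, had 7738, 5150.2, 10022 and 10385 in GL261, against 1264, 846 and 1172 in normal brain (log2 fold change 2.89, SE 0.24, adjusted p = 0.000121). Pla2g7, a phospholipase that is mainly secreted, was at 2.08 (adjusted p = 0.000275) and the sulfatase gene Galns at 1.09 (adjusted p = 0.0216). The acid nuclease gene Dnase2a, which digests DNA of engulfed cells, fell by 1.80 (adjusted p = 0.0204). Leaving out GL261 replicate 1, GL261 replicate 3 or normal brain replicate 3 ended the call of Galns (adjusted p up to 0.0741), and leaving out GL261 replicate 3 or normal brain replicate 2 ended that of Dnase2a (up to 0.0575). With the mean of all probe sets Galns was at 0.35 (adjusted p = 0.592).

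Among other membrane proteins, 7 of 35 were called higher and 1 lower, together 22.9% beside 10.1% of all genes tested. Gpnmb, a glycoprotein of lysosome-rich macrophages, had 5058, 5909, 6491 and 6319 in GL261, against 2356, 1916 and 2403 in normal brain (1.42, SE 0.15, adjusted p = 0.000311). The chloride-proton exchanger gene Clcn7 was at 1.18 (adjusted p = 0.0044) and the two-pore channel gene Tpcn2 at 0.97 (adjusted p = 0.0364). Cd68, the usual macrophage lysosomal marker, had 7347, 7476, 9612 and 9460.3 in GL261, against 7602, 7951 and 8914 in normal brain, with full overlap (0.05, adjusted p = 0.882). The tetraspanin gene Cd82 fell by 0.87 (adjusted p = 0.004). With the mean of all probe sets Clcn7 (0.88, adjusted p = 0.111) and Cd82 (adjusted p = 0.0925) were not called. In the list on lysosome formation and its control, 2 of 38 were called higher, Mitf and Tfec, and 2 lower, Hps1, which decreased by 1.63 (adjusted p = 0.0202), and Hps3, which fell by 0.53 (adjusted p = 0.026), both needed for lysosome-related organelles. Hps1 was not called without normal brain replicate 2 or GL261 replicate 3 (adjusted p up to 0.0637) and was at -0.40 with the mean of all probe sets (adjusted p = 0.542). Tpcn2 and Hps3 were each called in 2 of the 7 fits without 1 array, those without normal brain replicate 3 or GL261 replicate 4 for Tpcn2 and normal brain replicate 1 or GL261 replicate 4 for Hps3. The other pump subunits, with 3 of 14 called higher, or 21.4%, and 0 lower (0 lower at an unadjusted p under 0.05 as well), are described above.

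**Figure D5:**
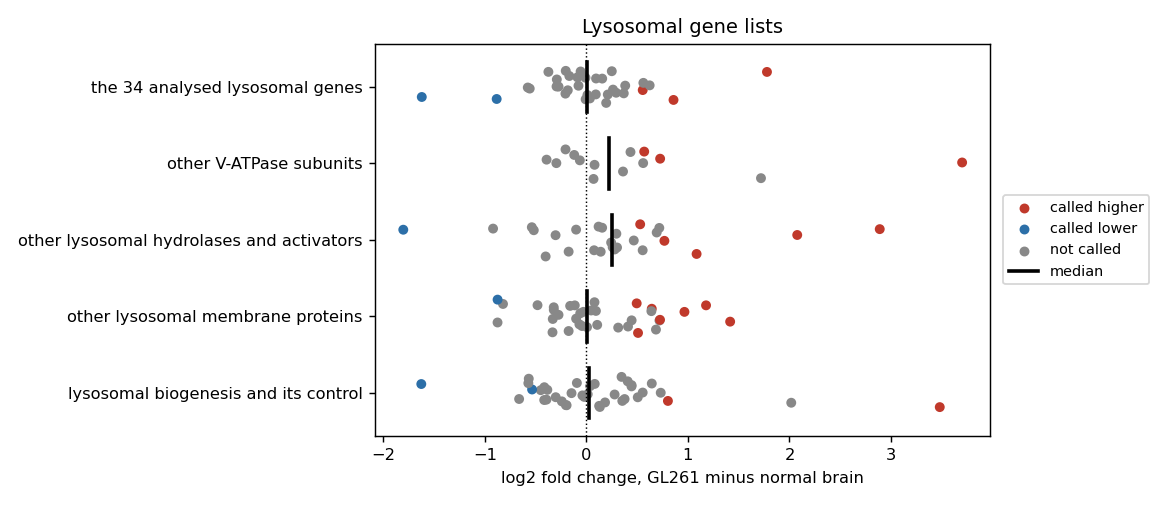
Log2 fold changes, GL261 minus normal brain, of the 34 lysosomal genes and of 4 lists of other lysosomal genes (points are genes, red called higher, blue called lower, grey not called, with black bars for the medians). Most genes of each list lie near 0, and Atp6v0d2, Tfec, Acp5 and Pla2g7 lie farthest to the right.

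The preparations also differed in markers of macrophage types and of other cells, measured in the same fit. Adgre1, which encodes F4/80, was at -0.39 (adjusted p = 0.0814) and Csf1r at -0.28 (adjusted p = 0.394), and 1 of 8 general macrophage markers was called higher. Homeostatic microglia markers were called lower in 7 of 8 genes, with summed signals of 18206 to 25241 in GL261, against 36579 to 43130 in normal brain. Border-associated macrophage markers were called lower in 6 of 7, with sums of 14697 to 16476 in GL261, against 25954 to 27539 in normal brain. Of 5 monocyte markers 3 were higher and 1 lower, with sums of 17443 to 24459 in GL261, against 15075 to 19111 in normal brain. Neutrophil markers were lower in 6 of 7, with sums of 16541 to 22952 in GL261, against 39749 to 51090.3 in normal brain. S100a8 (-1.01) and S100a9 (-0.97) were the largest part of these sums. The other 4 called, Ngp (-4.66), Camp (-3.78), Mpo (-3.84) and Ltf (-3.71), differed more, and Mmp8 (-0.16) was not called. B and plasma cell markers were lower in 5 of 6, with 1907 to 3060.0 in GL261, against 7221 to 9366 in normal brain. Endothelial markers were lower in 4 of 8, with 493 to 1946 in GL261, against 2692 to 3780.3 in normal brain, and red cell markers in 2 of 3, with 76.9 to 4498 in GL261, against 9421 to 16097 in normal brain. T and NK cell markers were higher in 4 of 10, with 10330.1 to 18694 in GL261, against 8123 to 8754 in normal brain. Pericyte and fibroblast markers were higher in 3 of 7, with 2569 to 4230.1 in GL261, against 518 to 1791 in normal brain. Of 6 oligodendrocyte lineage markers 3 were higher, Sox10 (5.16), Olig1 (2.77) and Olig2 (2.85), and 1 lower, Mbp (-1.07). Their sums, of which Mbp was the largest part, were 2261 to 3978 in GL261, against 3544 to 5746 in normal brain. Of 6 astrocyte markers 0 were called by limma and 0 had an unadjusted p under 0.05, with 849.6 to 1951 in GL261, against 947.6 to 2468 in normal brain. Of 4 neuronal markers 1 was higher, with 147 to 1017 in GL261, against 271 to 433 in normal brain. The red cell gene Hba-a1 was at background on all arrays. The 3' to 5' ratio of Gapdh, a sign of RNA integrity, was 1.75 ± 0.127 (SD, n = 4) in GL261 and 2.41 ± 0.0243 (SD, n = 3) in normal brain, and that of actin was 1.42 ± 0.0715 (SD, n = 4) in GL261 and 1.57 ± 0.116 (SD, n = 3) in normal brain. The two-sided exact permutation p was 0.0286 for Gapdh, the smallest that 35 splits allow, and 0.143 for actin. The part of these differences in the lysosomal results was not tested, and fewer cells of a type cannot be told apart from less RNA per cell. Relative to its mean over the arrays in log2, the average marker was at 0.60 in GL261 replicate 2 for endothelium and at 1.40 for red cells, against -1.54 to -1.14 and -2.95 to -2.50 on the other GL261 arrays. The average neutrophil marker was at 0.03 in GL261 replicate 2 and at -1.79 to -1.06 on the other GL261 arrays, although the summed neutrophil signal was highest in GL261 replicate 3. Without GL261 replicate 2 all 5 called lysosomal genes kept their calls. The log2 fold changes were then 1.80 for Gla, 0.86 for Atp6v1a, 0.63 for Man2b1, -0.99 for Gaa and -1.92 for Arsb.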

How the data were processed

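Gene expression of sorted macrophages was measured on Affymetrix mouse arrays in 4 GL261 and 3 normal brain preparations. Per the submitters' processing notes the authors used MAS5, and the deposited files hold its signal intensities on a linear scale. The MAS5 version is not given in the sources used here. The trimmed mean of every array was 500, and no further scaling was applied. A pseudocount of 6, the 20th percentile of the signals, was added before taking log2, so that changes of dim genes are understated. A gene entered the test if its probe set averaged more than 4.93 on this scale, the 40th percentile of the probe sets that are not controls. Of 45101 probe sets 34945 carried 1 symbol, 932 several and 9160 none.

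Groups were compared by limma 3.58.1 in R 4.3.3 (two-sided, variances allowed to follow the mean signal), and p-values were adjusted by the Benjamini-Hochberg method across all 12125 genes that passed. Adjusted p-values are from limma. Background was the 95th percentile of 27 unspiked Bacillus control probe sets on each array. Promoter motifs were searched with Python 3.11.15, and figures drawn with matplotlib 3.10.9. The procedure was tested on simulated data.

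The genes and lists were chosen with earlier results of these data known. All 34 lysosomal genes are accounted for, with values by array for those called or without overlap and for some others named by role. From each further list up to 3 called genes in each direction with the largest changes were named, and Mitf, Tfec, Tfe3 and the V1 subunits were added after their values were seen. Alternatives were other pseudocounts, filters, scalings, variance models, array weights, probe set rules, a replicate block and leaving out arrays.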

Additional observations from a re-analysis of the deposited data

How the results depend on the processing

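Of the 5 calls, Gla and Arsb were kept in every fit that left out 1 array and Atp6v1a, Gaa and Man2b1 were not. Over these fits 1 to 3 lysosomal genes were called higher and 1 to 2 lower, with medians from -0.046 to 0.029, and 8 to 13 other lysosomal genes were called higher and 1 to 4 lower. Gla was called in 18 of 19 alternatives, Arsb in 17, Atp6v1a in 13, Gaa in 6 and Man2b1 in 5. Without a filter 1 lysosomal gene was called lower and 11 others higher among 18193 genes. Under quantile normalization 5 were called higher, the median was 0.13 and Npc2 turned to 0.19. Under median centring 1 was higher, 1 lower and 7 others higher. Without a variance trend 1 was higher and 0 lower (limma; 2 lower at an unadjusted p under 0.05), and 6 others were higher and 2 lower. With array weights 1 was lower. With the mean of all probe sets 1 was higher, 0 lower (limma; 3 at an unadjusted p under 0.05) and 1 other lower, and Gla (0.94, adjusted p = 0.115) and Arsb (-0.86, adjusted p = 0.0757) lost their calls. With each probe set tested by itself 1 was lower and 10 others higher. Without normal brain replicate 1 and GL261 replicate 2 together, 1 was higher, 1 lower, 9 others higher and 1 other lower. The share of all genes called was 10.1% as reported, 5.04% without a filter, 12.2% under quantile normalization and 6.68% under median centring. It was 3.75% without a variance trend, 8.22% with array weights and 7.15% with the mean of all probe sets. With each probe set tested by itself it was 5.45%, and without normal brain replicate 1 and GL261 replicate 2 together 7.09%. Without 1 array it ran from 4.47% to 9.66%. The cause of these changes was not tested.

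The groups share replicate numbers. Deviations of arrays with the same number had correlations across genes of 0.0792, -0.0075 and 0.031, and 2 of 3 correlated best with their own number. With so few arrays these values cannot decide whether the arrays were paired. With the replicate number as a block, in which GL261 replicate 4 has no partner and adds nothing to the fold change, 2 lysosomal genes were called higher and 3 lower, with Lamp1 (-0.38, adjusted p = 0.0455) and Lamp2 (-0.47, adjusted p = 0.025) among them, and 1004 genes in all. Genes called in neither fit changed sign in 43 of 646 single-gene fits. Signals of the probe sets used for the 34 genes were above background on all arrays, while some other probe sets of these genes were not.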
